A study of Mus musculus with 6 samples.

Results

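Tk1 and the enzymes that make deoxynucleotides were followed in bulk-seq of mouse spinal cord. The set holds 9 genes (Tk1, Tk2, Tyms, Rrm1, Rrm2, Rrm2b, Dck, Dguok and Dut) of the 25576 genes listed in at least 1 library. They were selected on measured values, since Tk1 was chosen by its difference between SMA and control in these libraries, so their values are given as a description with no test. Total RNA from spinal cord of FVB mice at postnatal day 4 was depleted of ribosomal RNA and sequenced in 6 libraries. The 3 libraries labelled SMA came from Taiwanese SMA mice without mouse Smn (mSmn-/-) and with the human SMN2 transgene (hSMN2 2tg/0), and the 3 labelled control came from heterozygous mice (mSmn+/-) with the same transgene, so the controls also lack 1 copy of Smn. The study's methods name triplicates but a single n per group, so the libraries of a group may be repeats of the same material. In what follows n counts libraries, and SD, SE and p-values measure only the spread between them, which may be technical. Each SE is the moderated value of the limma fit, which draws a gene's spread toward that of genes of similar level.

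Deoxynucleotides reach DNA by a de novo and a salvage route. In the de novo route ribonucleotide reductase turns ribonucleotides into deoxynucleotides, and thymidylate synthase makes dTMP from dUMP. In the salvage route kinases phosphorylate deoxynucleosides. Dividing cells raise Tk1, Tyms and Rrm2 for S phase, whereas Tk2, Dguok, Rrm2b and Dck are made in resting cells as well, and serve among other things the copying of mitochondrial DNA. A newborn spinal cord holds many neurons that no longer divide beside glial precursors that do.

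The labels were first compared with Smn1, the targeted gene. Smn1 was at 10.4, 8.64 and 11.9 FPKM (fragments scaled to transcript length and to the size of the library) in control replicates 1, 2 and 3 and at 8.48, 9.3 and 11.1 FPKM in SMA replicates 1, 2 and 3. The groups overlapped, with an exact two-sided permutation p of 0.6, where 3 libraries against 3 allow no p under 0.1. The FPKM is given for the whole gene, so whether transcripts of the targeted allele or of SMN2 add to it cannot be told. The values of Smn1 therefore cannot check the labels, and the groups are called by their labels throughout.

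Control replicate 2 stood apart from the other 5 libraries. Its log2(FPKM + 1) values had a Pearson correlation across genes of 0.836 to 0.849 with the other libraries, against at least 0.983 among those 5. All 26 hepatocyte markers tested were highest in this library, and their summed level was 33062 FPKM there against 68.5 to 135 FPKM elsewhere. Albumin (Alb), the most abundant, was at 15894 FPKM in control replicate 2 and at 24.6 to 56.2 FPKM in the other libraries. The 16 erythroblast markers found summed to 18965 FPKM against 1116 to 1868 FPKM, with Hbb-bs, an adult beta globin, the most abundant, and Klf1 and Gata1, regulators of red cell development, at 20.8 and 7.95 FPKM. Markers listed for neutrophil progenitors, some of them also made by mature neutrophils, summed to 431 FPKM against 6.08 to 12.9 FPKM. S100a8, one of the latter, was the most abundant, at 205 FPKM in control replicate 2. Elane, a granule protease of the progenitors, was at 9.18 FPKM there and was absent from the lists of control replicate 3 and SMA replicate 1. Without control replicate 2, 4 of 4 fitted neutrophil progenitor, 7 of 9 erythroblast and 9 of 18 hepatocyte markers had a lower mean in SMA. Over all genes 49.6% did. The median log2 fold changes of the lists were -0.34, -0.32 and -0.0. Every control library lay above every SMA library for 1, 2 and 0 of these markers, beside 13.9% of all genes. Their part in the values of Tk1 was not tested. The 7 neuron markers, with Tubb3 the most abundant, summed to 453 FPKM in control replicate 2. They summed to 834 and 823 FPKM in control replicates 1 and 3 and to 845, 895 and 909 FPKM in the SMA libraries. All 7 had a higher mean in SMA with all libraries and 6 without control replicate 2, with median log2 fold changes of 0.39 and 0.12, and for 4 of them every SMA library lay above every control library in both cases. Over all genes 9915 of 17088 had a higher mean in SMA with all libraries and 8347 of 16574 without control replicate 2, and every SMA library lay above every control library for 10.3% and 14.2%. The part of the neuron markers in the values of Tk1 and the other genes was not tested. The lumbar marker Hoxc10 and the thoracic markers Hoxc8 and Hoxc9 were detected in every library, control replicate 2 included. These and the 2 other position markers (Hoxa7 and Hoxd9, named after their values were seen) did not differ in 1 direction. Hoxa7 was at 15.1, 9.61 and 10.7 FPKM in control and 15.3, 16.3 and 17.6 FPKM in SMA libraries, every SMA library above every control library, with log2 fold changes of 0.46 and, without control replicate 2, 0.34. Hoxc10 was at 23.7, 14.6 and 35.9 FPKM in control and 18.2, 21.8 and 21.1 FPKM in SMA libraries, overlapping only through control replicate 2, with log2 fold changes of -0.19 and -0.5. Neither had a limma adjusted p under 0.05 in either fit, and the part of the position markers in the other values was not tested. The values of the 9 genes are therefore given with and without control replicate 2.

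Tk1, the cytosolic thymidine kinase, lies on the minus strand of chromosome 11 (117815526 to 117826092 in GENCODE, build GRCm38). It was at 5.34, 20.0 and 3.99 FPKM in control replicates 1, 2 and 3 and at 2.88, 1.39 and 1.67 FPKM in SMA replicates 1, 2 and 3. Every control library lay above every SMA library, and control replicate 2 lay far above all others, at 6.94 times the median of the other 5. The log2 fold change of FPKM + 1, SMA minus control, was -1.58 (SE 0.532, n = 3 per group), and -0.95 (SE 0.226) without control replicate 2. The mean of the control libraries was 4.93 times that of the SMA libraries, and 2.36 times without control replicate 2. Since this scale adds 1 to each value, it understates the differences of genes at such low levels. In bulk tissue fewer cells with a transcript and less of it per cell cannot be told apart.

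The files give Tk1 a span (117809668 to 117839908) shared with 3 other genes. These are Afmid, which degrades formylkynurenine, Syngr2, a vesicle protein, and Gm20708, a model that runs through both. All lie on the plus strand, and Tk1 and Afmid overlap head to head by 169 bases. The libraries were strand-specific, but whether the FPKM estimates used strand is not given in the sources used here. Afmid was at 1.81, 7.19 and 0.959 FPKM in the control libraries and at 1.29, 1.42 and 1.66 FPKM in the SMA libraries. It shared the high value in control replicate 2 but overlapped between the groups, with a log2 fold change of 0.06 without that library. Syngr2, at 6.35, 15.3 and 5.74 FPKM in control and 5.29, 5.22 and 5.34 FPKM in SMA libraries, did not overlap (exact permutation p = 0.1), with log2 fold changes of -0.57 and, without control replicate 2, -0.16. Gm20708 did not exceed 0.915 FPKM in any library. Beside Rrm2b, the pseudogene Gm3362 did not exceed 0.365 FPKM.

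Tyms, thymidylate synthase, was at 4.62, 8.43 and 3.04 FPKM in control replicates 1, 2 and 3 and at 2.9, 2.37 and 2.43 FPKM in the SMA libraries. The groups did not overlap, but control replicate 3 and SMA replicate 1 were close. Its log2 fold change was -0.75 (SE 0.298), and -0.42 (SE 0.172) without control replicate 2. Rrm2, the small reductase subunit of dividing cells, was at 6.11, 31.6 and 5.41 FPKM in the control libraries and at 5.44, 4.76 and 5.84 FPKM in the SMA libraries. Apart from control replicate 2 all libraries were alike and the groups overlapped. Its log2 fold change of -0.85 (SE 0.597) came to -0.09 (SE 0.121) without control replicate 2, so the difference in Rrm2 rested on that library.

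**Figure D1:**
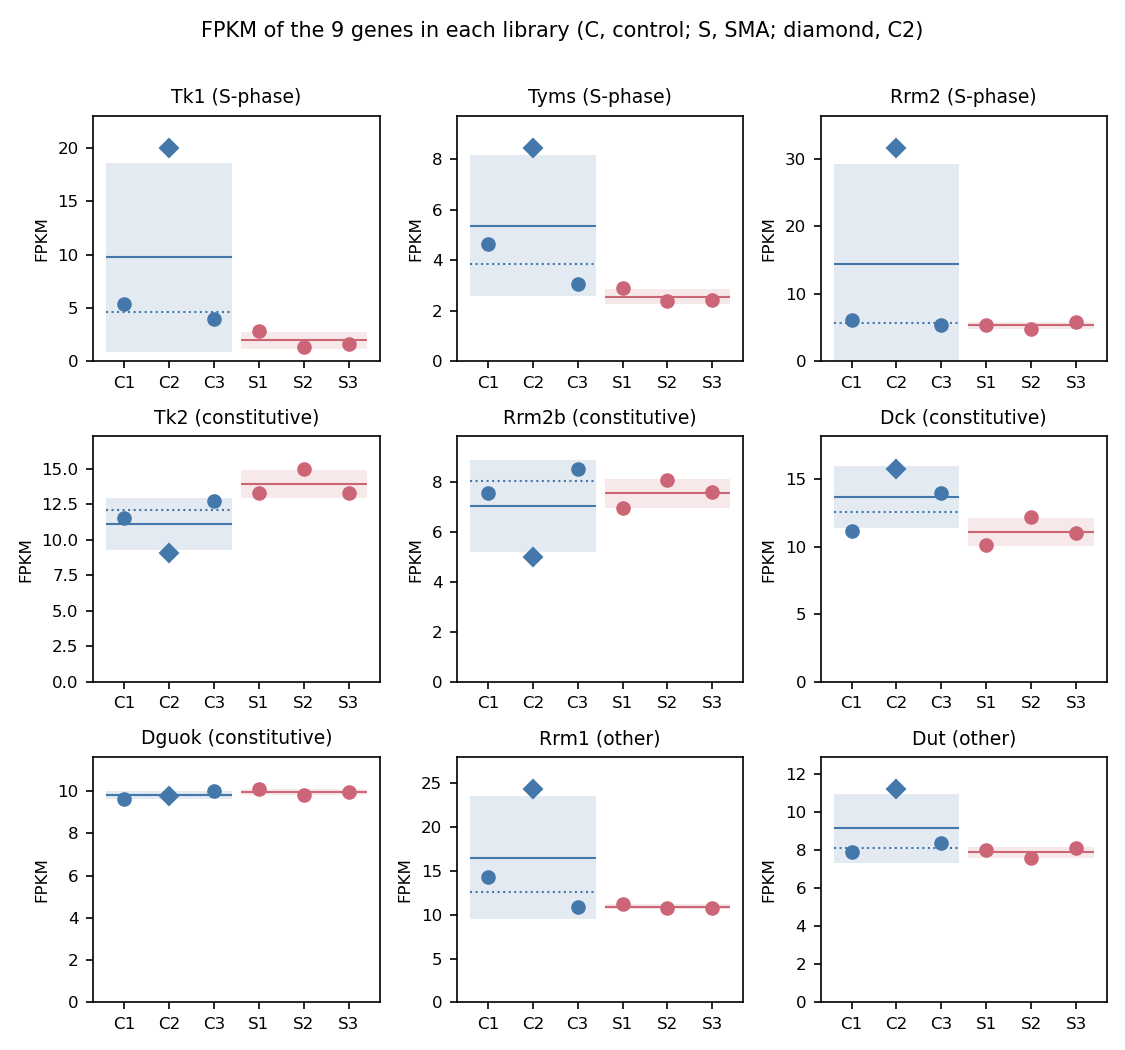
FPKM of each gene (vertical axes, from 0) in control replicates C1 to C3 and SMA replicates S1 to S3. Lines are group means, shading is 1 SD on either side (not drawn below 0), the dotted line is the control mean without C2, and C2, a diamond, is the highest library for Tk1, Tyms, Rrm2, Rrm1, Dck and Dut and the lowest for Tk2 and Rrm2b.

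The 4 constitutive genes differed less than the S-phase genes with all libraries, but without control replicate 2 Tk2 and Dck differed more than Rrm2. Tk2, the mitochondrial thymidine kinase, was at 11.5, 9.09 and 12.7 FPKM in control and at 13.3, 15.0 and 13.3 FPKM in SMA libraries. Every SMA library lay above every control library, by a small margin, with a log2 fold change of 0.31 (SE 0.137), and 0.18 (SE 0.091) without control replicate 2. Rrm2b, the p53-inducible small subunit, was at 4.99 to 8.54 FPKM in control and 6.95 to 8.1 FPKM in SMA libraries. Its log2 fold change went from 0.12 (SE 0.185) to -0.08 (SE 0.106) without control replicate 2, so it had no stable sign. Dck, deoxycytidine kinase, was at 11.2 to 15.8 FPKM in control and 10.1 to 12.2 FPKM in SMA libraries, with log2 fold changes of -0.27 (SE 0.144) and -0.16 (SE 0.118). Dguok, the mitochondrial deoxyguanosine kinase, was the flattest of the 9, between 9.63 and 10.1 FPKM in all 6 libraries.

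Rrm1, the large reductase subunit that pairs with either small subunit, was at 14.3, 24.3 and 10.9 FPKM in control and 11.2, 10.7 and 10.7 FPKM in SMA libraries. The groups overlapped, with a log2 fold change of -0.49 (SE 0.261), and -0.19 (SE 0.115) without control replicate 2. Dut, which removes dUTP and supplies dUMP to Tyms, was at 7.87 to 11.2 FPKM in control and 7.57 to 8.11 FPKM in SMA libraries. Its log2 fold change of -0.18 (SE 0.141) came to -0.04 (SE 0.0917) without control replicate 2.

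In the SMA libraries the mean levels ran from Tk2 at 13.9 FPKM ± 0.994 (SD, n = 3), through Dck at 11.1 ± 1.05, Rrm1 at 10.9 ± 0.291, Dguok at 9.96 ± 0.12, Dut at 7.89 ± 0.285, Rrm2b at 7.55 ± 0.579 and Rrm2 at 5.34 ± 0.545, to Tyms at 2.56 ± 0.292 and Tk1 at 1.98 ± 0.79. Dck and Rrm1, Dut and Rrm2b, and Tyms and Tk1 were within their spread of each other. Tk1 was the lowest of the 9 in SMA replicates 1, 2 and 3, and in control replicate 2 it ranked above Tk2. The ratio of Tk1 to Tk2 in FPKM was 0.466, 2.2 and 0.314 in control replicates 1, 2 and 3 and 0.216, 0.0927 and 0.126 in the SMA libraries. The ratio of Rrm2 to Rrm2b was 0.808, 6.34 and 0.634 in control and 0.782, 0.587 and 0.767 in SMA libraries, and overlapped.

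All 9 genes reached the minimum mean for the fit, 0.5 FPKM. Of the 17088 genes fitted, every control library lay above every SMA library for 6.67%, and for Tk1 and Tyms among the 9 genes. Every SMA library lay above every control library for 10.3% of all genes, and for Tk2. Without control replicate 2 the shares were 13.9% and 14.2% of 16574 genes, for the same 3 genes. Control replicate 2 was over 2-fold above the highest of the other libraries for 8.23% of all genes and for Tk1 and Rrm2, and was the lowest library for 44.9% of all genes and for Tk2 and Rrm2b. Since the genes were chosen with this contrast known, nothing is read from these shares.

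The S-phase genes were then set against the constitutive genes. Per library, the mean log2(FPKM + 1) of Tk1, Tyms and Rrm2 minus that of Tk2, Rrm2b, Dck and Dguok was -0.78, 0.86 and -1.26 in control replicates 1, 2 and 3 and -1.24, -1.74 and -1.51 in SMA replicates 1, 2 and 3. Only in control replicate 2 did the S-phase genes exceed the constitutive genes, and control replicate 3 lay below SMA replicate 1, so the groups overlapped. The group means were -0.39 ± 1.11 (SD, n = 3) in control and -1.5 ± 0.25 (SD, n = 3) in SMA, a difference of -1.10. Without control replicate 2 the control mean was -1.02 ± 0.34 (SD, n = 2) and the difference -0.48. The constitutive mean itself differed by 0.04 with all libraries and by -0.01 without control replicate 2, a mean over genes of opposite sign such as Tk2 and Dck. On the S-phase side the difference without control replicate 2 was largest in Tk1, the gene chosen by this contrast.

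**Figure D2:**
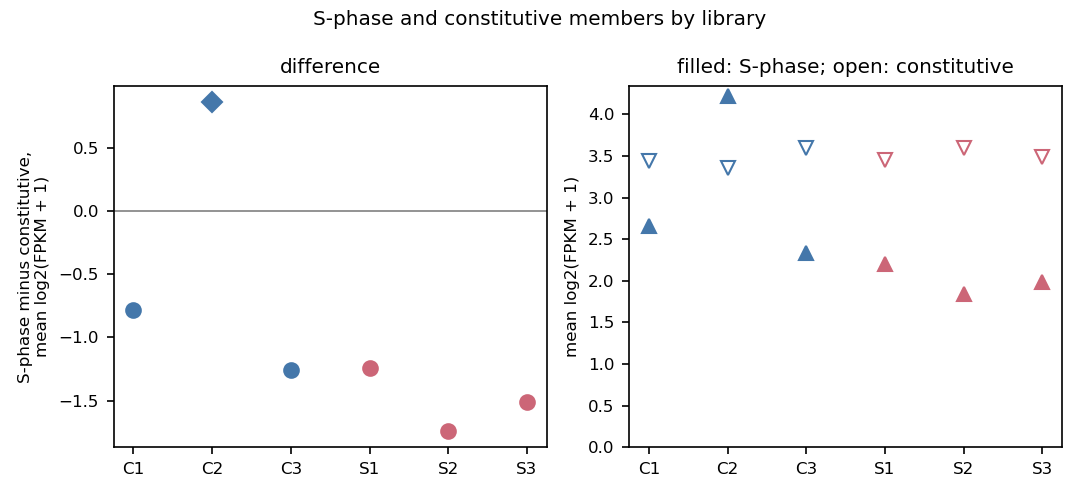
Left, mean log2(FPKM + 1) of Tk1, Tyms and Rrm2 minus that of Tk2, Rrm2b, Dck and Dguok in each library; right, both means (triangles up, S-phase; open triangles down, constitutive). Control replicate 2 (diamond) is the only library above 0, at 0.86, and the other 5 lie between -1.74 and -0.78.

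**Figure D3:**
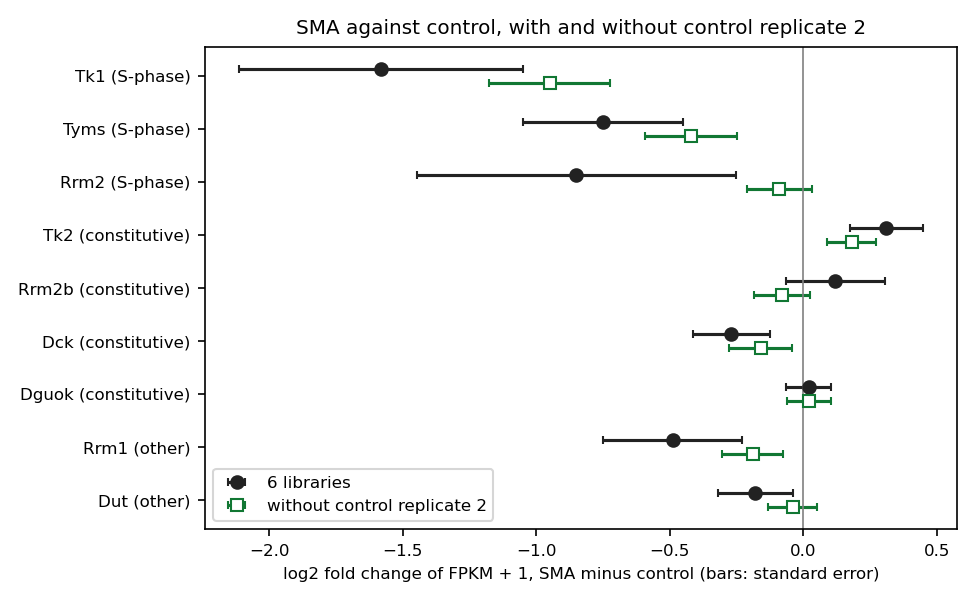
Log2 fold change of FPKM + 1, SMA minus control, of each gene (points) with its moderated standard error (bars), for all 6 libraries (filled) and without control replicate 2 (open). Rrm2 moves from -0.85 to -0.09 and Tk1 from -1.58 to -0.95.

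Over all genes, limma found 0 at an adjusted p under 0.05 (0% of 17088), with 409 lower and 581 higher in SMA at an unadjusted p under 0.05 (2.39% and 3.4%). Adding a difference over 2-fold left 17 lower (0.0995%) and 12 higher (0.0702%). The lower count was 7 without control replicate 2 and ran from 4 to 131 as each library was left out. Without control replicate 2, 2 of 16574 genes had an adjusted p under 0.05 (0.0121%), and 862 lower and 874 higher an unadjusted p under 0.05 (5.2% and 5.27%).

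The other genes of the pathway were taken from a list of 53 kinases, folate-cycle enzymes, nucleotidases, reductase partners, transporters and users of deoxynucleotides in mitochondria. Of these 52 were in the files and 51 were fitted, 33 with a lower and 18 with a higher mean in SMA, and a median log2 fold change of -0.11 (0.04 over all genes). Without control replicate 2 the counts were again 33 and 18 and the median was -0.03. The lower share was thus 64.7% in both cases, beside 42.0% of all genes with all libraries and 49.6% without control replicate 2. At an unadjusted p under 0.05, 1 gene was lower and 1 higher, shares near those of all genes, and none passed adjustment by limma. The lower gene was Samhd1, a dNTP hydrolase, named after its values were seen (log2 fold change -0.34, and -0.28 without control replicate 2; limma adjusted p = 0.683 with all libraries). The higher gene was Cmpk1, which phosphorylates CMP, UMP and dCMP, at 42.0, 32.0 and 40.1 FPKM in control and 44.6, 49.0 and 46.7 FPKM in SMA libraries (log2 fold change 0.3, and 0.18 without control replicate 2; limma adjusted p = 0.683 with all libraries). Without control replicate 2 the counts were 3 lower (Nme7, Cda and Glrx) and 2 higher (Cmpk1 and Slc25a36), Nme7 being named after its values were seen. These shares were again near those of all genes, of which 5.2% were lower and 5.27% higher without that library.

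Of the abundant genes of the list, Txn1, thioredoxin, a reductant of ribonucleotide reductase, had a mean of 64.4 FPKM over the libraries and log2 fold changes of -0.17 with all libraries and -0.13 without control replicate 2. Glrx, glutaredoxin, another such reductant, was at 45.5, 35.9 and 51.0 FPKM in control and 36.0, 40.4 and 40.1 FPKM in SMA libraries, so that the groups overlapped only through control replicate 2. Its log2 fold change went from -0.17 to -0.31 without that library, with limma adjusted p-values of 0.683 and 0.313. Txn2, the mitochondrial thioredoxin, went from -0.15 to -0.03, Guk1, guanylate kinase, from 0.22 to 0.04 and Ak1, adenylate kinase, from 0.39 to 0.15. Slc25a36, a mitochondrial pyrimidine nucleotide carrier, was at 0.25 and 0.15, and Nme2, a nucleoside diphosphate kinase, at -0.08 and 0.0. None of these genes had a limma adjusted p under 0.05 with or without control replicate 2.

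Most of the large differences in the list were smaller without control replicate 2. Shmt1, cytosolic serine hydroxymethyltransferase of the folate cycle that serves Tyms, was at 0.983, 20.9 and 0.975 FPKM in control and at 0.948, 0.535 and 0.751 FPKM in SMA libraries. Its log2 fold change of -1.35 came to -0.19 without control replicate 2. Adenosine kinase (Adk) was at 62.3 FPKM in control replicate 2 and 11.3 to 16.1 FPKM elsewhere, and its log2 fold change went from -0.69 to 0.03. For Nt5e, an ectonucleotidase, and Ccnf, which targets Rrm2 for degradation, the log2 fold changes of -0.78 and -0.42 came to -0.23 and -0.02. Slc29a1, a nucleoside transporter, kept -0.29 of -0.61, and Cda, cytidine deaminase, was at -0.44 and -0.56. Hepatocyte and red cell markers were high in the same library, and their part in these values was not tested.

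Genes of DNA replication and mitosis were compared as lists. Of 36 S-phase replication genes all 36 had a lower mean in SMA, with a median log2 fold change of -0.47, and 32 of 36 with a median of -0.18 without control replicate 2. All 20 mitosis genes had a lower mean in SMA with and without that library, with medians of -0.82 and -0.42. Over all genes 42.0% had a lower mean with all libraries and 49.6% without control replicate 2. The mitosis list summed to 71.9, 211 and 61.2 FPKM in control replicates 1, 2 and 3 and to 56.4, 35.0 and 46.1 FPKM in the SMA libraries, without overlap. The S-phase replication list summed to 179, 345 and 168 FPKM in control and to 151, 139 and 141 FPKM in SMA libraries, also without overlap. These lists come from the contrast that chose Tk1, and no test was made of either list as a set. Their genes were part of the limma fit over all genes. At an unadjusted p under 0.05, 8 of 36 S-phase and 7 of 20 mitosis genes were lower with all libraries. Without control replicate 2 the counts were 7 and 9. Over all genes 2.39% and 5.2% were lower, and no gene of either list was higher at that p. Every control library lay above every SMA library for 13 and 12 genes in both cases, beside 6.67% and 13.9% of all genes. Since the lists come from that contrast, nothing is read from these counts. No gene of either list had an adjusted p under 0.05 with or without control replicate 2.

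Single genes of these lists held unequal shares of the difference without control replicate 2. Pcna, the replication clamp and the most abundant, was at 33.4, 53.2 and 29.3 FPKM in control and 24.6, 20.9 and 23.8 FPKM in SMA libraries, with log2 fold changes of -0.67 and -0.42. Uhrf1, which keeps DNA methylation through replication, was at -1.03 and -0.61, and Mcm3, of the helicase, at -1.09 and -0.49. E2f2, a transcription factor of the cell cycle, went from -1.09 to -0.26, Mcm7 from -0.59 to -0.15 and Lig1, DNA ligase 1, from -0.06 to 0.04. In the mitosis list Ccnb1, cyclin B1, was at -1.04 and -0.57, Hmmr, a spindle protein, at -1.03 and -0.60, Ccna2, cyclin A2, at -1.0 and -0.47, Top2a, topoisomerase, at -0.97 and -0.44 and Mki67, the Ki-67 protein, at -1.17 and -0.43.

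**Figure D4:**
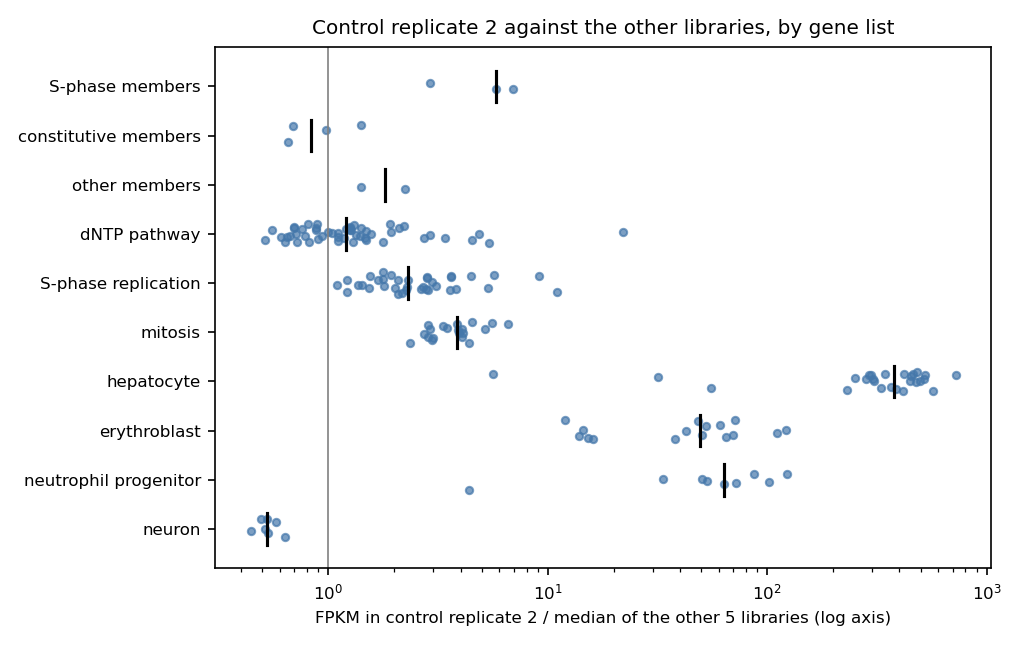
FPKM in control replicate 2 divided by the median of the other 5 libraries (log axis) for each gene (points) of each list, with the list's median (bars), for genes whose mean reached 0.5 FPKM. The S-phase genes have a median of 5.82 and the constitutive genes 0.833, beside 377 for hepatocyte markers and 0.527 for neuron markers.

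The 5 genes most like Tk1 differed with the libraries used. Over 6 libraries the Pearson correlation of log2(FPKM + 1) with Tk1 was highest for Nabp1, Ganab, Tmem173, Cenpf and Sel1l, at 0.995 to 0.996, and Tyms ranked 68 and Rrm2 922 of 17087 genes. Over the 5 libraries without control replicate 2 it was highest for Tubgcp4, Hist2h2bb, Mrps18c, Kctd21 and Larp1, and Tyms ranked 407 and Rrm2 2982 of 16573 genes. In the mitosis list the correlation with Tk1 ran from 0.915 (Bub1) to 0.995 (Cenpf) over 6 libraries. Over the 5 it ran from 0.591 (Birc5) to 0.995 (Ccna2). In the S-phase replication list it ran from 0.168 (Gins4) to 0.993 (Uhrf1) over 6 libraries and from -0.459 (Gins4) to 0.967 (Uhrf1) over the 5. With so few libraries such values order the genes and say no more, and some varied little: Ganab was at 32.0 to 39.3 FPKM over 6 libraries and Larp1 at 27.3 to 28.7 FPKM over the 5.

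Promoters are shown because the S-phase genes are known to share control by the cell cycle. RefSeq (build GRCm38.p6) held windows of 300 bases, from 250 before to 50 after the start, for 8 of the 9 genes, Rrm2b being the missing entry. The 100 bases from 120 to 21 before the start are printed for Rrm1 (chr7:102441575-102441674, plus strand), Rrm2 (chr12:24708134-24708233, plus strand), Tyms (chr5:30073646-30073745, minus strand) and Tk2 (chr8:104248579-104248678, minus strand), 5′ to 3′, with matches in capitals.
Rrm1: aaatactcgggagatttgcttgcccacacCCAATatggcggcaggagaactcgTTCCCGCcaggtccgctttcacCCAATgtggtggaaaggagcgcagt
Rrm2: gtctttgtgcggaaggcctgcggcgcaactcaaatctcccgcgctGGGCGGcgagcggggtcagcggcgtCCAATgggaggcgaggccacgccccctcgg
Tyms: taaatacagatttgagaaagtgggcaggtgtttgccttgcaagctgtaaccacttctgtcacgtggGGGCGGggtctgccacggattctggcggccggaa
Tk2: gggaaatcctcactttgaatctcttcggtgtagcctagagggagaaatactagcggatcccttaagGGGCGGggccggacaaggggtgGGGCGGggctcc
The capitals mark a CCAAT box (CCAAT), a GC box (GGGCGG) and E2F-like letters (TTCCCGC, with the variant TTGGCGC, the variant TTGCCGC and the variant TTCGCGC), searched on both strands, with no overlap between different motifs in these windows. CCAAT was in 2 of 8 windows (Rrm1 and Rrm2) and in 37.4% of 32851 windows, GGGCGG in 6 of 8 and 35.7%, and the E2F-like letters in 2 of 8 (Rrm1 and Rrm2) and 9.57%. Of the 3 motifs Tk1, Tyms, Tk2, Dck and Dut held the GC box alone, and Dguok held none. A match is a description of letters and says nothing of binding.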

How the data were processed

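Bulk-seq libraries of spinal cord were compared, 3 labelled SMA against 3 labelled control. The authors deposited FPKM per gene and library, computed with HISAT2 and Cufflinks on mm10 (submitters' processing notes; versions not given in the sources used here). Genes absent from a library were set to 0. Depth in reads is unknown; the commonest ratio between libraries among values below 0.15 FPKM put relative depth at 1.0 to 1.16 of SMA replicate 1, so counting intervals could not be given. Values were taken as log2(FPKM + 1), genes averaging 0.5 FPKM or more were fitted with limma 3.58.1 (R 4.3.3; lmFit, eBayes with trend, two-sided, Benjamini-Hochberg), and single genes outside the 9 by exact permutation (scipy 1.17.1). The fit was tested on simulated data. The study's count test could not be run on FPKM. Thresholds of p under 0.05 and 2-fold follow the study's methods. The 9 genes and all lists were chosen with earlier results of these data known. Named genes were the 9, Smn1, genes sharing a span with them, the 8 most abundant and 8 most different pathway genes, 3 and 3 of each cell-cycle list, markers (the first 2 and the most abundant of each list) and those most like Tk1; some genes that this rule names are not reported here. Of 218 listed entries 216 were found, 215 by identifier. Alternatives were a pseudocount of 0.1, no filter, a minimum of 1 FPKM, median ratio scaling, quantile normalization, an equal FPKM total, the replicate block and leaving out each library.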

Additional observations from a re-analysis of the deposited data

How the results depend on the processing

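The S-phase minus constitutive difference of -1.10 was negative under each alternative run for it, and the changes of filter were not run for it. It ran from -1.31 to -1.10 under other pseudocounts and scalings. As each library was left out it ran from -1.54 to -0.48, the smallest without control replicate 2. The log2 fold change of Tk1 ran from -1.98 to -0.95 and that of Rrm2 from -1.27 to -0.09; Rrm2b changed sign (-0.08 to 0.25), as did Dguok (-0.03 to 0.04). Genes lower by over 2-fold at an unadjusted p under 0.05 numbered 17, and 125 with a pseudocount of 0.1; higher genes numbered 12, and 64 with that pseudocount. Leaving out each library gave 4 to 131 lower and 12 to 28 higher genes, and 0 to 2 at an adjusted p under 0.05. In the pathway list, 1 lower and 1 higher gene had an unadjusted p of less than 0.05, and these counts ran from 0 to 3 and from 0 to 4. The higher count was 0 with a pseudocount of 0.1, a minimum of 1 FPKM or an equal total, and 2 without a filter. The cause of these changes was not tested. Deviations from the group means did not go together in libraries of the same replicate number (correlations of -0.037, 0.016 and 0.077). Control replicate 2 weighs on the deviations of its whole group, so this check cannot exclude a pairing. With the replicate block 35 genes were lower, and 0 pathway genes were lower and 0 higher.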

Other observations

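Markers of other cell types were also measured. The 5 motor neuron markers, with Slc18a3, the vesicular acetylcholine transporter, the most abundant, summed to 23.6, 15.8 and 34.8 FPKM in control replicates 1, 2 and 3 and to 25.5, 29.6 and 27.8 FPKM in the SMA libraries, and overlapped. Oligodendrocyte lineage markers, with Mbp the most abundant, summed to 759 to 1152 FPKM in control and 627 to 792 FPKM in SMA libraries. Of the 7 markers 5 had a lower mean in SMA with all libraries and 6 without control replicate 2, with median log2 fold changes of -0.02 and -0.17. Every control library lay above every SMA library for 0 of them with all libraries and, without control replicate 2, for Pdgfra, a precursor marker, and Mag, of myelin, both named after their values were seen (log2 fold changes -0.17 and -0.46, limma adjusted p = 0.443 and 0.436), beside 13.9% of all genes. The Pearson correlation of Pdgfra with Tk1 was -0.478 over 6 libraries and 0.986 over the 5 without control replicate 2. For the other markers of this list it ran from -0.445 (Cspg4) to 0.385 (Mag) over those 5. The part of these markers in the values of Tk1 was not tested. Astrocyte markers (most abundant Gfap) summed to 388 to 467 and 409 to 464 FPKM, microglia markers (P2ry12) to 43.8 to 55.9 and 42.4 to 49.1 FPKM and megakaryocyte markers (Gp1bb) to 24.7 to 64.7 and 20.8 to 23.8 FPKM. In each of these lists and among the motor neuron markers all genes overlapped between the groups with all libraries. Without control replicate 2 every control library lay above every SMA library for Aqp4, an astrocyte water channel, and Slc5a7, the choline transporter of motor neurons (log2 fold changes -0.24 and -0.34, limma adjusted p = 0.313 and 0.458), and every SMA library above every control library for Csf1r, a microglia receptor (0.12, limma adjusted p = 0.661). These 3 were named after their values were seen. Over all genes every control library lay above every SMA library for 13.9%, and the reverse held for 14.2%. Without control replicate 2, 3 of 5 astrocyte, 2 of 4 fitted motor neuron and 3 of 5 microglia markers had a lower mean in SMA. Over all genes 49.6% did, and the medians of the 3 lists were -0.0, -0.09 and -0.02. The Pearson correlation of Aqp4 with Tk1 was -0.061 over 6 libraries and 0.929 over 5. For the other astrocyte markers it was 0.057 (Gfap), 0.084 (Slc1a3), 0.106 (Aldh1l1) and -0.079 (Gja1) over 5. That of Slc5a7 was -0.613 over 6 libraries and 0.408 over 5, beside -0.640 for Slc18a3, -0.443 for Chat and 0.345 for Isl1 over 5. The part of these markers in the values of Tk1 was not tested. Skeletal muscle markers summed to at most 6.41 FPKM, and Myod1 was absent from the list of every library but SMA replicate 2.

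The 2 genes with an adjusted p under 0.05 in limma without control replicate 2, named after their values were seen, were Snora74a and Rpph1, both noncoding RNAs. Both had a limma adjusted p of 0.683 with all libraries. Snora74a was absent from the lists of control replicates 1 and 3, where it was set to 0, and was at 2.99 FPKM in control replicate 2 and 10.5, 7.85 and 5.56 FPKM in the SMA libraries, so its call rests on values that were filled in. Rpph1, the RNA of RNase P, was at 72.3, 74.8 and 73.1 FPKM in control and 109.0, 114 and 115 FPKM in SMA libraries.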
